A study of Macaca mulatta with 24 samples.

Results

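Resveratrol (RSV) added to a high-fat, high-sugar diet was examined in the cerebral cortex of rhesus monkeys, by setting the 10 HFS+R arrays against the 10 HFS arrays of a series of 24 arrays. All monkeys whose arrays were compared were male, were 7 to 13 years old and had eaten the same HFS diet for 24 months, with 42% of kcal from fat and 27% sucrose by weight. In the HFS+R group the RSV came in flavored treats given 2 times daily, with 40 mg per treat during year 1 and 240 mg during year 2, while the HFS group ate placebo treats. The other 4 arrays are of monkeys on a standard diet (SD; 13% of kcal from fat, less than 5% sucrose) with placebo treats, and served to estimate the spread and as a reference level. Each array is of 1 monkey, and arrays were assigned to the diets by their titles alone. RNA came from whole tissue of perfused animals, named temporal neocortex in the extraction protocol and frontal cortex in 1 legend of the study, and it was hybridized to Illumina HumanHT-12 V4.0 beadchips, whose probes were designed on human transcripts. The comparison asks which transcripts differ when RSV is added to an unchanged obesogenic diet. It was made over the 9884 genes that were detected (detection p under 0.01) on 4 or more of the 24 arrays.

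RSV is a plant polyphenol that has been studied as an activator of the NAD-dependent deacetylase SIRT1 and of the energy sensor AMPK, as an inhibitor of phosphodiesterases that degrade cyclic AMP, and as an inducer of the antioxidant factor NRF2. The cortex is a mixture of excitatory and inhibitory neurons with astrocytes, oligodendrocytes, microglia and vessels. Neurons there keep up a heavy traffic of membrane between the endoplasmic reticulum, the Golgi, endosomes, lysosomes and synapses, and remove proteins through ubiquitin and the proteasome. Insulin signalling restrains the kinase GSK3B and the transcription factor FOXO3 through AKT.

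Of 105 RAB GTPase and endosomal sorting genes, 20 rose in HFS+R (19.0%, against 9.94% of all genes) and 4 fell. Of 74 genes of transport between the endoplasmic reticulum and Golgi, 13 rose (17.6%) and 5 fell. With the SD of the signal of each array as a covariate, these counts were 5 and 2, and 3 and 2. The ubiquitin-conjugating enzyme UBE2K rose as well. GSK3B, AGO2 and a histone H4 gene, each read by 1 detected probe, were among the genes that fell. FOXO3 and SCN2A fell on their brightest probe but not on their dimmer probes. The RSV-fed cortex differed from the HFS cortex in 1582 of 9884 genes, 16% of those tested (limma, 2-sided, Benjamini-Hochberg adjusted p under 0.05). Of these, 982 were higher in HFS+R (9.94% of all genes) and 600 were lower (6.07%). At an unadjusted p under 0.05 there were 3102 genes. Changes were small. The median size was 0.29 on the log2 scale among the higher genes, a fold of 1.22, and 0.30 among the lower genes, a fold of 1.23. Differences above 0.5 on the log2 scale were seen in 38 higher and 36 lower genes. Levels and differences below are on the log2 scale of Z-normalized signal, and the values of a group are given as lowest, median and highest of its 10 arrays.

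**Figure D1:**
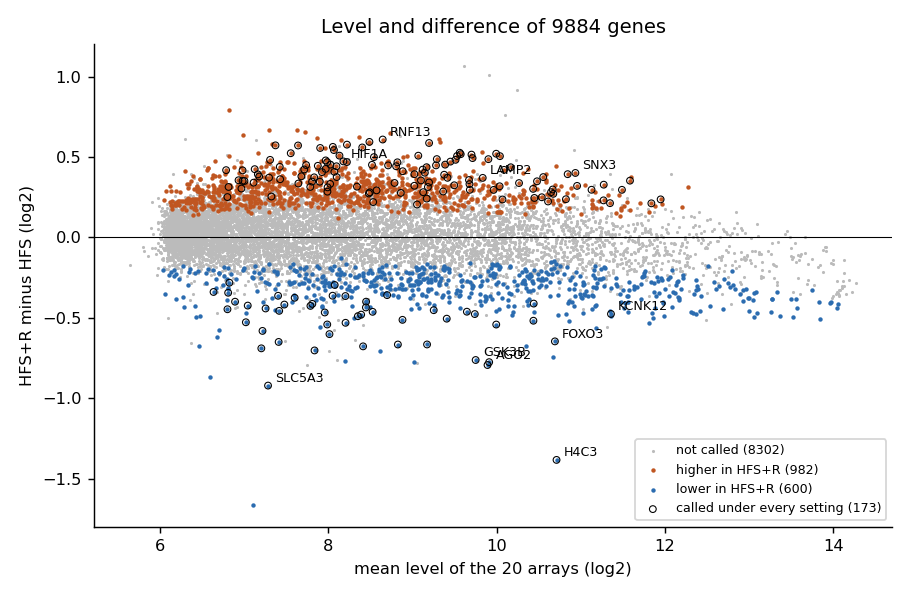
Difference between HFS+R and HFS (log2, y axis) against the mean level over the 20 arrays (log2, x axis) for 9884 genes, 1 point per gene. Orange points are the 982 genes called higher in HFS+R and blue points the 600 called lower, the latter lying at higher levels, and black rings mark the 173 genes whose call was the same under every setting.

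In Z-normalized values the higher and the lower genes lay at different levels of expression, and most of this contrast was gone under other settings. When genes were divided into 4 equal sets by their mean level, 4.37% of the dimmest set was called higher and 1.21% lower, while in the brightest set 9.27% was called higher and 13.0% lower. These were 108 higher and 30 lower genes in the dimmest set and 229 and 322 in the brightest. Quantile normalization gave 80 and 56 in the dimmest set and 284 and 272 in the brightest, neqc (a normalization on the negative control probes) gave 91 and 68 against 244 and 232, and the fit with the SD described next as a covariate gave 13 and 16 against 67 and 81. The SD of the log2 signal of an array also differed between the groups. The HFS arrays gave 1.42 ± 0.0521 (SD, n = 10), while the HFS+R arrays gave 1.48 ± 0.0489 (SD, n = 10; 2-sided permutation test, p = 0.0180) and the 4 SD arrays ran from 1.40 to 1.57. Z normalization divides by this SD. When this SD (the array SD below) entered the model, 362 of the 1582 calls remained (150 higher, 212 lower). Because the array SD differed between the groups, it and the RSV treatment cannot be fully told apart in this fit. A call lost there is therefore not shown to come from the spread of signal. Scaling each array by its median moved the median of all genes to 0.11 and called 1410 genes higher and 73 lower. The number of detected probes was 12473 to 14890 in HFS and 12459 to 14528 in HFS+R (permutation test, p = 0.800). For the median signal of an array, HFS gave 58.3 ± 1.30 (SD, n = 10) while HFS+R was lower at 57.0 ± 1.46 (SD, n = 10; 2-sided permutation test, p = 0.0492). The calls of 173 genes, 124 higher and 49 lower, were the same under all 14 other settings and with each of the 24 arrays left out. Since 1 of these settings kept only genes detected on all 20 arrays, dimmer genes could not be among them. Another used the deposited Z scores, which match those computed here to within 5e-10, so that its agreement was fixed in advance. How much of the other calls comes from the spread of signal on the arrays was not tested beyond these values.

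**Figure D2:**
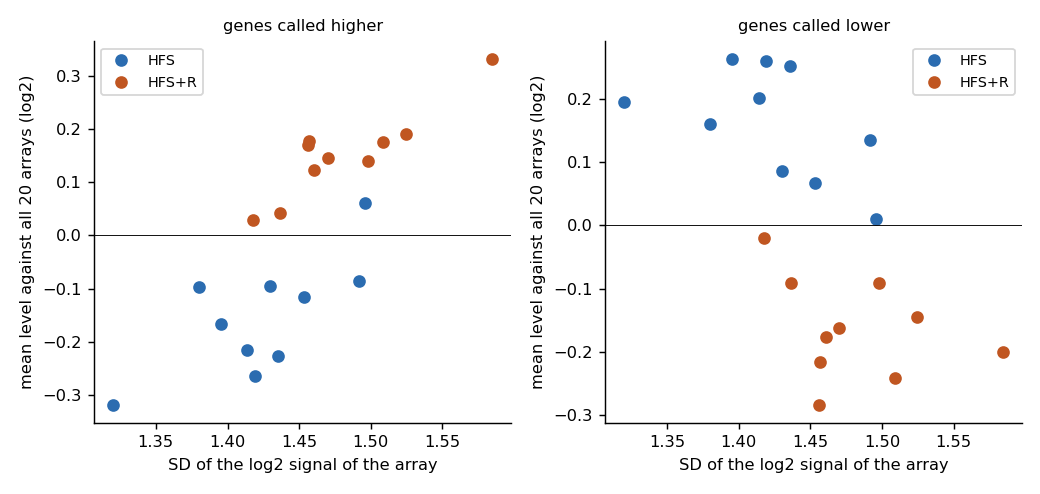
Mean level of the genes called higher (left) and called lower (right) on each of the 20 arrays, relative to the mean of all 20 (log2, y axis), against the SD of the log2 signal of the array (x axis), with HFS in blue and HFS+R in orange. The separation of the groups on the y axis follows from the choice of the genes, and on the x axis the HFS points span 1.320 to 1.496, against 1.418 to 1.585 for HFS+R.

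In 15 genes, 0.152% of all, the values of the 10 HFS+R arrays did not overlap those of the 10 HFS arrays, 11 of them higher (0.111%) and 4 lower (0.0405%). All 15 passed limma. With quantile normalization there were 21 such genes and with scaling by the array median 3. Members of the membrane and protein traffic of the cell were among the higher genes. LAMP2, a glycoprotein of the lysosomal membrane, measured 9.46, 9.69 and 9.75 in HFS and 9.77, 10.06 and 10.23 in HFS+R. It rose by 0.37 (SE 0.06, adjusted p = 0.000766), and its 3 dimmer probes gave 0.59, 0.50 and 0.43. The margin between the groups was narrow on this Z-normalized scale, with 9.754 on the highest HFS array and 9.774 on the lowest HFS+R array. SNX3, a sorting nexin that binds endosomes and hands cargo to retromer, measured 10.32, 10.73 and 10.96 in HFS and 10.97, 11.10 and 11.48 in HFS+R, a rise of 0.40 (SE 0.08, adjusted p = 0.00263). The groups nearly touch, since the highest HFS arrays lay just under the lowest HFS+R array. UBE2K, a ubiquitin-conjugating enzyme of the brain, measured 8.54, 9.21 and 9.41 in HFS and 9.45, 9.60 and 9.82 in HFS+R and rose by 0.45 (SE 0.08, adjusted p = 0.0014). HFS replicate 7 lay far below the other HFS arrays. SEC24A, a cargo-binding part of the COPII coat on vesicles that leave the endoplasmic reticulum, measured 6.22, 6.42 and 6.66 in HFS and 6.74, 6.80 and 7.33 in HFS+R. It was detected on 8 of 10 HFS and 10 of 10 HFS+R arrays and rose by 0.48 (SE 0.09, adjusted p = 0.00272), not an exact size because of the arrays near background.

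RDX, or radixin, which ties actin to the plasma membrane, measured 7.15, 7.32 and 7.68 in HFS and 7.70, 7.87 and 8.37 in HFS+R. It rose by 0.57 (SE 0.10, adjusted p = 0.00172), and the lowest HFS+R array lay just above the highest HFS array. KITLG, the ligand of the receptor kinase KIT, rose by 0.57 (SE 0.12, adjusted p = 0.00338) from a median of 7.14 to one of 7.60. A dimmer KITLG probe gave 0.06. The other higher genes were ABCD3, a transporter of fatty acids into peroxisomes (0.35), MTMR12, an inactive member of the myotubularin phosphatases (0.35), SECISBP2L, a relative of the protein that reads selenocysteine signals (0.33), MMADHC, which directs cobalamin inside cells (0.33), and SPDYE2B (0.29), with the log2 difference in brackets. SPDYE2B belongs to a family of close copies, so that its probe may read several of them. The calls of MMADHC and SPDYE2B ended with the array SD as a covariate.

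KCNK12, a potassium channel subunit of the tandem-pore family, was the brightest of the 4 lower genes. It measured 11.41, 11.60 and 11.77 in HFS and 10.88, 11.11 and 11.36 in HFS+R, with 11.02, 11.11 and 11.64 as lowest, median and highest of the 4 SD arrays. The HFS+R arrays all lay under the HFS arrays, in a difference that fell by 0.48 (SE 0.07, adjusted p = 0.00081). SKI, a corepressor of TGF-β signalling, measured 8.48, 8.65 and 8.70 in HFS, within a narrow range, and 7.84, 8.13 and 8.47 in HFS+R, and fell by 0.48 (SE 0.07, adjusted p = 0.000668). WDR73, a WD repeat protein, was detected on 10 of 10 HFS but 4 of 10 HFS+R arrays and fell by 0.49 (SE 0.08, adjusted p = 0.00108), an inexact size. ACVR2B, a receptor for activins, was not well above background on any HFS+R array and on 5 of 10 HFS arrays, so that no fold is given (adjusted p = 0.00081). It was detected on 3 of 4 SD arrays. Unlike in KCNK12, the SD median of SKI (8.59) was near that of HFS (8.65) and above that of HFS+R (8.13). In WDR73 the medians were 6.81 in SD, 6.72 in HFS and 6.24 in HFS+R.

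**Figure D3:**
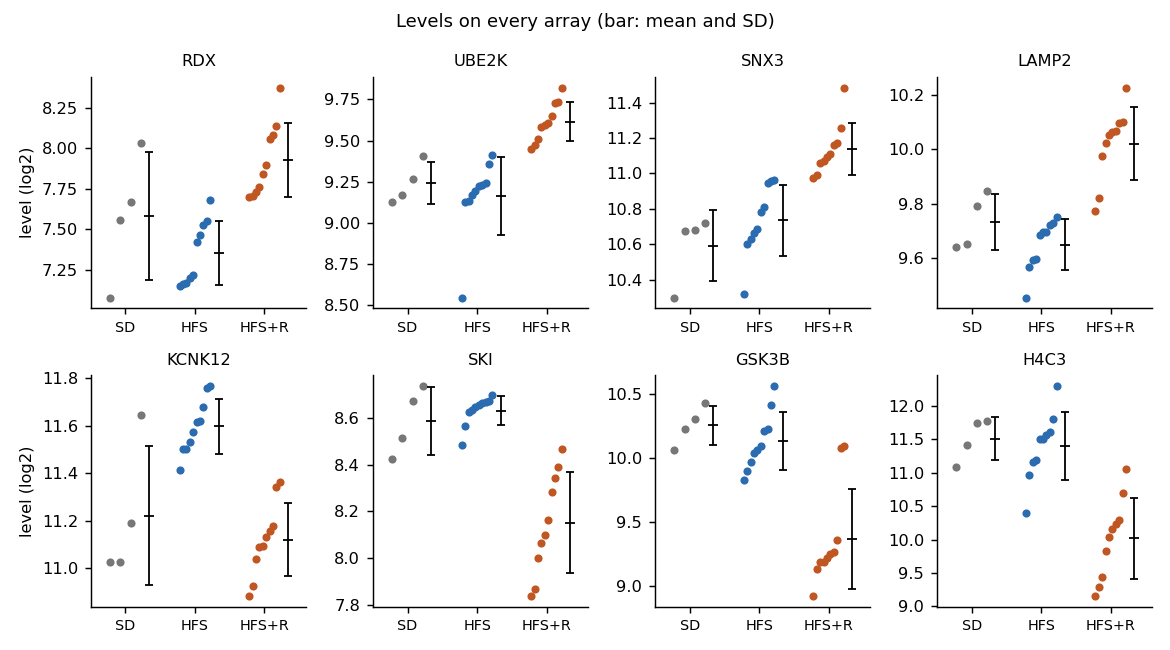
Level (log2, y axis) of 8 genes on every array of the SD (grey, n = 4), HFS (blue, n = 10) and HFS+R (orange, n = 10) groups, 1 point per monkey, with the mean and SD of each group as a black bar beside the points. For RDX, UBE2K, SNX3, LAMP2, KCNK12 and SKI the HFS and HFS+R points do not overlap, while for GSK3B and H4C3 some do.

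Among genes detected on all 20 arrays, the largest falls were in a histone, a solute carrier, a calcium-binding protein and the core enzyme of RNA interference. H4C3, which encodes histone H4, measured 10.41, 11.51 and 12.30 in HFS and 9.15, 10.10 and 11.05 in HFS+R, and fell by 1.38 (SE 0.22, adjusted p = 0.00081). The H4 genes are near copies of each other, and which of them the probe reads in the monkey was not examined. 8 of 10 HFS+R arrays lay below every HFS array. SLC5A3, the sodium-coupled carrier of myo-inositol, measured 7.06, 7.77 and 8.38 in HFS and 6.42, 6.65 and 7.54 in HFS+R and fell by 0.92 (SE 0.16, adjusted p = 0.00121). CALN1, or calneuron, a neuronal calcium-binding protein, fell by 0.79 (SE 0.16, adjusted p = 0.00362) from 9.87, 10.29 and 10.68 to 8.74, 9.56 and 10.11. AGO2 measured 9.99, 10.27 and 10.56 in HFS and 8.94, 9.49 and 10.18 in HFS+R and fell by 0.78 (SE 0.11, adjusted p = 0.000668). In AGO2 9 of 10 HFS+R arrays lay below every HFS array. These 4 falls held under every setting, as did those of SETBP1, a SET-binding protein (−0.70), TXLNG, a taxilin of vesicle traffic (−0.68), AGFG1, a relative of Arf GTPase activators (−0.67), MSL3, of the male-specific lethal chromatin complex (−0.67), and FBXO41, a neuronal F-box protein (−0.69). Dimmer probes gave 0.08 for TXLNG, 0.12 for AGFG1, and −0.63 and 0.15 for MSL3. H4C3, SLC5A3, CALN1, AGO2, SETBP1 and FBXO41 each had 1 kept probe, so no such comparison was possible. RYBP, of polycomb complexes (−0.77), lost its call with scaling by the array median and CUEDC1, with a ubiquitin-binding CUE domain (−0.77), with the array SD as a covariate. CGGBP1, which binds CGG repeats, fell by 0.68 on its brightest probe, but its other probe was called higher at 0.34. POGLUT1, which adds glucose to Notch (−0.71), lost its call under 4 settings and with any of 5 arrays left out. HSBP1, a binding partner of heat shock factor named after its value was seen, was called lower (adjusted p = 0.0387) but was detected on 7 of 10 HFS and 1 of 10 HFS+R arrays, so that no size is given.

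Among the same genes, detected on all 20 arrays, the largest rises were smaller than the largest falls. SLC38A1, a neuronal glutamine transporter, measured 6.92, 7.46 and 7.97 in HFS and 7.59, 8.01 and 8.52 in HFS+R and rose by 0.66 (SE 0.15, adjusted p = 0.00619), with 0.02 on its dimmer probe. In RNF13, a ubiquitin ligase anchored in endosomal membranes, 8 of 10 HFS+R arrays lay above every HFS array, at 8.60, 8.88 and 9.39 against 7.97, 8.38 and 8.82. RNF13 rose by 0.61 (SE 0.11, adjusted p = 0.00152) and kept its call under every setting. So did STAG2, a subunit of cohesin (0.59), MAPK6, an atypical MAP kinase (0.59), PIP4P2, a phosphoinositide phosphatase of late endosomes and lysosomes (0.58), and RNPC3, of the minor spliceosome (0.56, with 0.39 on a dimmer probe). CA2, a carbonic anhydrase abundant in oligodendrocytes, measured 7.43, 7.92 and 8.67 in HFS and 7.69, 8.66 and 9.19 in HFS+R and rose by 0.62 (SE 0.16, adjusted p = 0.0134), with 0.66 on a dimmer probe. ETNPPL, a phospholipid enzyme of astrocytes, rose by 0.59 (SE 0.16, adjusted p = 0.0177). SNX10, a sorting nexin (0.59), OXR1, of resistance to oxidative damage (0.61), RSRP1, an arginine- and serine-rich protein (0.65), CDKN1B, an inhibitor of cyclin-dependent kinases (0.62), and SAR1B, the GTPase that starts COPII coats (0.61, with 0.17 on a dimmer probe), complete the 15 largest rises of genes detected on all 20 arrays. SLC38A1, RSRP1, CA2, CDKN1B, OXR1, SAR1B, ETNPPL and SNX10 were no longer called when the array SD was a covariate. CDKN1B and SAR1B also lost theirs with 12 and 19 of the arrays left out in turn.

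Traffic of membrane and cargo was represented by 105 measured RAB GTPases and endosomal sorting genes, of which 20 rose (19.0%, against 9.94% of all genes) and 4 fell (3.81%, against 6.07%). The median difference of the list was 0.05 (0.02 over all genes). Shares of the lists below are to be read against these shares of all genes. VPS29, a core subunit of retromer, measured 10.16, 10.34 and 10.56 in HFS and 10.54, 10.75 and 10.92 in HFS+R and rose by 0.38 (SE 0.06, adjusted p = 0.00118). RAB2A, a GTPase between the endoplasmic reticulum, Golgi and lysosome, rose by 0.37 (SE 0.07, adjusted p = 0.00157), with 0.33 on its other probe, and TSG101, of the ESCRT machinery that sorts ubiquitinated cargo, by 0.30 (SE 0.06, adjusted p = 0.00217). In TSG101 9 of 10 HFS+R arrays lay above every HFS array. These 3, SNX3 and STAM2, an ESCRT adaptor (0.42), held under every setting. The sorting nexins SNX1 (0.22), SNX2 (0.19), SNX4 (0.43), SNX10 (0.59) and SNX13 (0.32) rose as well, as did the ESCRT genes CHMP1B (0.28), CHMP2B (0.33), CHMP5 (0.27), VPS4B (0.31) and STAM (0.34), and the GTPases RAB8B (0.44), RAB10 (0.15), RAB22A (0.26) and RAB28 (0.30). Among the 4 that fell were RAB3A, the GTPase of synaptic vesicles (−0.44), and SNX17, which recycles receptors (−0.19). Scaling by the array median gave 25 higher and 0 lower, quantile normalization 18 and 9, and a fit that included the array SD 5 and 2.

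Of 74 genes of transport between the endoplasmic reticulum and Golgi, 13 rose (17.6%) and 5 fell (6.76%), with a median difference of 0.04. SEC23A, the inner COPII coat protein that partners SEC24A, measured 7.58, 7.76 and 8.23 in HFS and 7.89, 8.28 and 8.41 in HFS+R and rose by 0.45 (SE 0.08, adjusted p = 0.00185) under every setting. Further COPII genes higher in HFS+R were SEC23B (0.19), SEC24B (0.25) and SAR1A (0.27), while SEC24C (−0.28) and SEC16A (−0.23), which organizes exit sites, fell. The COPI coat genes COPB1 (0.34) and COPB2 (0.28) rose and COPE (−0.24) fell. COPB2 lost its call with the array SD as a covariate, where the whole list gave 3 higher and 2 lower.

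Ubiquitin conjugation and removal counted 170 measured genes, of which 26 rose (15.3%) and 16 fell (9.41%), with a median of 0.05. The balance turned with the array SD as a covariate, to 4 higher and 9 lower, and was 23 to 19 with quantile normalization. Beside UBE2K and RNF13, the ligases RNF11 (0.44) and HECTD2 (0.42), the conjugating enzymes UBE2A (0.27) and UBE2G1 (0.24), and the deubiquitinases USP15 (0.37), UCHL5 (0.36) and USP14 (0.26), both of the proteasome in the last pair, were higher. UBE2O, which joins conjugating and ligase activity in 1 protein, measured 8.94, 9.21 and 9.29 in HFS and 8.66, 8.80 and 9.11 in HFS+R and fell by 0.36 (SE 0.06, adjusted p = 0.00105), a call that ended with scaling by the array median. UBA1, the main ubiquitin-activating enzyme (−0.40), FBXW11, a substrate receptor for β-catenin and IκB (−0.53), NEDD4L, a ligase for ion channels (−0.47), and CUL9, a cullin (−0.43), also fell, the last 3 under every setting. Of 36 proteasome genes 5 rose (13.9%) and 1 fell (2.78%), with 28 above 0 and a median of 0.08. Of all 9884 genes 5525 lay above 0, and their median was 0.02. PSMD10, or gankyrin, an assembly chaperone of the regulatory particle, rose by 0.24 (SE 0.05, adjusted p = 0.00519) and its other probes gave 0.23 and 0.20. PSMC6, an ATPase subunit (0.32), and PSMA3, a core subunit (0.24), rose but lost their calls with the array SD as a covariate.

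**Figure D4:**
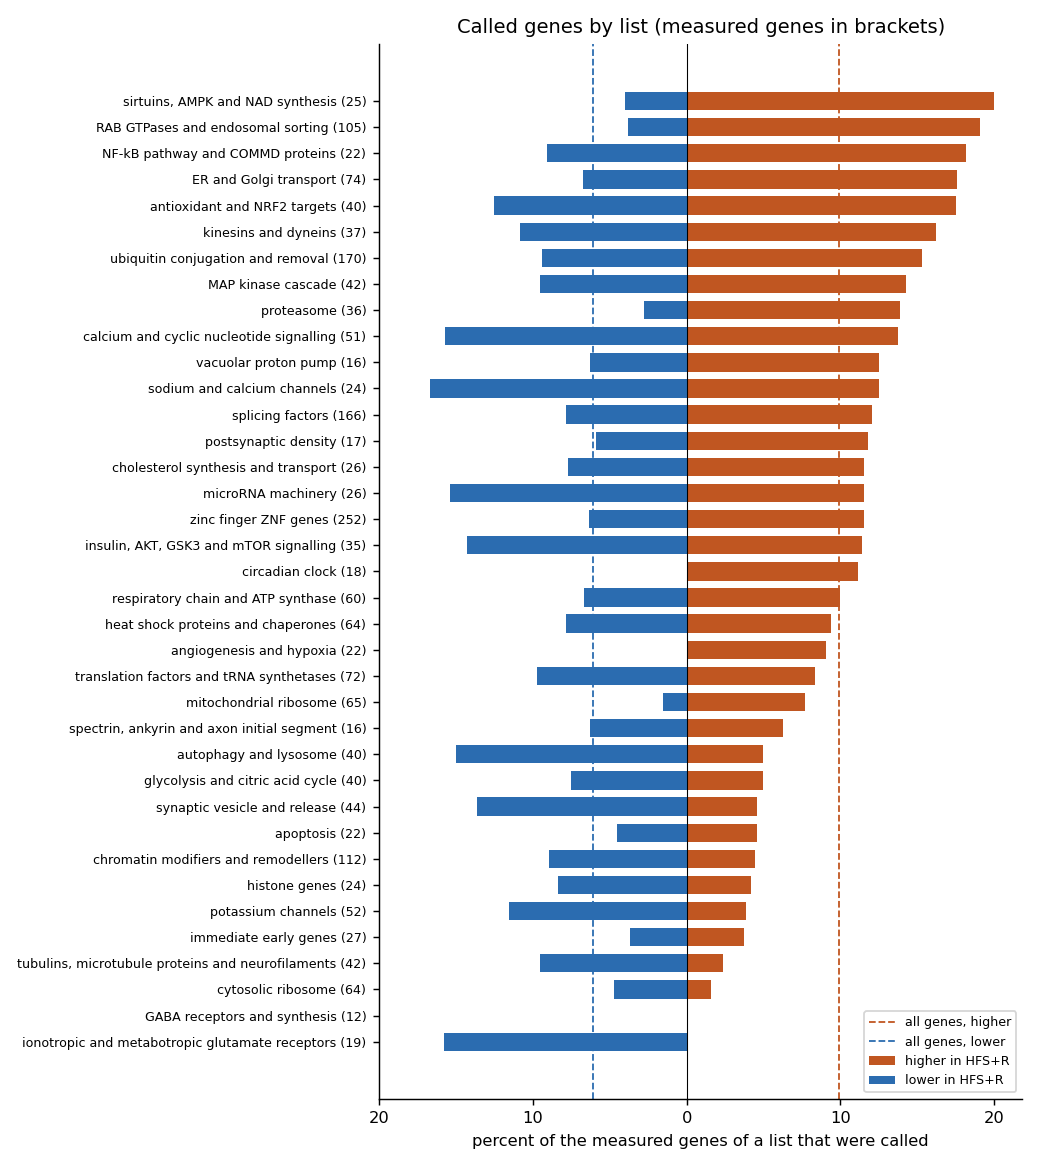
Share of the measured genes of each of 37 function lists (measured number in brackets) that was called higher (orange, to the right) or lower (blue, to the left) in HFS+R, in percent. Dashed lines mark the shares over all 9884 genes, 9.94% higher and 6.07% lower, and the higher share was 19.0% in the list of RAB GTPases and endosomal sorting and 0 in glutamate receptors.

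Lysosome, proton pump and chaperone genes went both ways. Of 40 autophagy and lysosome genes 2 rose (5.00%) and 6 fell (15%), but 5 rose and 0 fell with scaling by the array median. LAMP2 and ATG4C, a protease of autophagosome formation (0.35), rose, while the lysosomal proteases CTSF (−0.27, lost with scaling by the array median) and CTSA (−0.19), the autophagosome protein MAP1LC3A (−0.27), WIPI2 (−0.28) and ATG10 (−0.28) of the same pathway, and the cathepsin inhibitor CST3 fell. CST3, or cystatin C, measured 13.32, 13.95 and 14.38 in HFS and 13.16, 13.57 and 13.87 in HFS+R, a difference of −0.33 whose call (adjusted p = 0.0492) ended under 10 settings and with 17 of the arrays left out in turn. Of 16 vacuolar proton pump genes 2 rose (12.5%) and 1 fell (6.25%), with 10 below 0 and a median of −0.11. With scaling by the array median 4 rose and 0 fell. ATP6V1A, the catalytic subunit of the vacuolar proton pump, measured 8.98, 9.43 and 9.81 in HFS and 9.55, 9.98 and 10.23 in HFS+R and rose by 0.52 (SE 0.10, adjusted p = 0.002), with 8 of 10 HFS+R arrays above every HFS array. Of its membrane sector, ATP6V0A1 fell (−0.28), but its difference was 0.00125 with scaling by the array median. Of 64 heat shock and chaperone genes 6 rose (9.38%) and 5 fell (7.81%), or 0 and 1 with the array SD as a covariate. BAG4, a cochaperone, fell by 0.53 (SE 0.10, adjusted p = 0.00229) under every setting, and DNAJC10, a disulfide reductase of the endoplasmic reticulum (0.33), and HSPA4L (0.37) rose but not with the array SD as a covariate.

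Calls on the glutamate receptor list were for lower levels, while channel genes were called in both directions. Of 19 genes on the glutamate receptor list 0 rose and 3 fell (15.8%), with a median of −0.05. GRINA, counted among the 3, is not itself a glutamate receptor. GRIN2B, a subunit of the NMDA receptor, measured 6.66, 7.04 and 7.25 in HFS and 6.09, 6.38 and 6.83 in HFS+R and fell by 0.57 (SE 0.11, adjusted p = 0.00213), an inexact size since 5 of 10 HFS+R arrays detected it. GRIN1, the obligate NMDA receptor subunit, fell by 0.32 (SE 0.09, adjusted p = 0.0181), and GRINA, a membrane protein named after this receptor, by 0.36 (SE 0.07, adjusted p = 0.00287). Differences on dimmer probes were smaller, at −0.09 and −0.11 for GRIN1 and −0.12 for GRINA. GRIN1 and GRINA, both bright, lost their calls with scaling by the array median. GRIN1 also lost its own with neqc and with either covariate. At an unadjusted p under 0.05, 1 gene of the list was higher and 7 were lower. None of the 12 measured genes of GABA receptors and synthesis passed limma, where 2 were higher at an unadjusted p under 0.05, and the median of that list was 0.04.

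Of 24 sodium and calcium channel genes 3 rose (12.5%) and 4 fell (16.7%), or 3 and 2 with scaling by the array median. SCN2A, a sodium channel of excitatory neurons, measured 10.75, 11.04 and 11.42 in HFS and 10.04, 10.20 and 10.86 in HFS+R on its brightest probe and fell by 0.74 (SE 0.10, adjusted p = 0.000668). Its other probes gave 0.24 and 0.00, and the call ended with the mean of the probes. CACNA1A, the pore of P/Q-type calcium channels at nerve endings, measured 7.78, 7.98 and 8.28 in HFS and 7.19, 7.70 and 7.80 in HFS+R and fell by 0.41 (SE 0.09, adjusted p = 0.00468) under every setting, with −0.09 on a dimmer probe. SCN8A, a sodium channel of the axon initial segment, rose by 0.35 (SE 0.08, adjusted p = 0.00586), a call lost with the array SD as a covariate. Of 52 potassium channel genes 2 rose (3.85%) and 6 fell (11.5%), but 5 rose and 1 fell with scaling by the array median. Beside KCNK12, KCNMA1, the large-conductance calcium-activated channel, fell by 0.47 (SE 0.11, adjusted p = 0.00675), but its other probes gave 0.03 and −0.04, and the mean of the probes ended the call, as did scaling by the array median. KCNS1, a modulatory subunit, gave −0.24 (adjusted p = 0.0617) and was not called. It was called lower with only the HFS and HFS+R arrays, with the replicate block and with any of 4 arrays left out, while scaling by the array median gave 0.04.

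At the synapse, 2 of 44 vesicle and release genes rose (4.55%) and 6 fell (13.6%). RAB3A measured 9.97, 10.27 and 10.50 in HFS and 9.07, 9.86 and 10.05 in HFS+R and fell by 0.44 (SE 0.09, adjusted p = 0.00419). The complexins CPLX1 (−0.35) and CPLX2 (−0.40, with 0.08 and 0.05 on other probes), which clamp fusion, synapsin SYN1 (−0.30) and the SNARE protein STX1A (−0.30) were lower too. With scaling by the array median 0 genes of this list fell and 5 rose. Of 17 postsynaptic genes 2 rose (11.8%, against 9.94% of all genes) and 1 fell (5.88%, against 6.07%). HOMER1 (0.43) and NLGN1 (0.40), a scaffold and an adhesion molecule, were higher, and the scaffold DLGAP4 (−0.30) was lower. None of these calls held with the array SD as a covariate, while NLGN1 also lost its own with 8 of the arrays left out in turn. SPTBN4, the spectrin of the axon initial segment, measured 9.57, 9.92 and 10.05 in HFS and 8.99, 9.41 and 9.65 in HFS+R and fell by 0.46 (SE 0.08, adjusted p = 0.00105) under every setting. A dimmer SPTBN4 probe gave −0.20. CNTN1, an adhesion protein of axons, rose by 0.39 (SE 0.08, adjusted p = 0.00469), also under every setting. SPTBN1, the spectrin of most membranes, was not called, at −0.78 (SE 0.29, adjusted p = 0.065) and widely spread HFS values of 8.45, 9.53 and 10.56, although it passed with any of 5 arrays left out. Its dimmer probes gave −0.13 and 0.02.

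Of 42 tubulin, microtubule and neurofilament genes 1 rose (2.38%) and 4 fell (9.52%), MAP1A (−0.34), TUBGCP2 (−0.32) and TUBGCP6 (−0.22) among the latter. With scaling by the array median 3 of the list rose and 0 fell. TUBGCP6 lost its call with 7 of the arrays left out in turn too. The motor genes divided, with 6 of 37 kinesin and dynein genes higher (16.2%) and 4 lower (10.8%), or 1 and 2 with the array SD as a covariate. DCTN6, a subunit of dynactin, measured 9.95, 10.05 and 10.34 in HFS and 10.27, 10.42 and 10.62 in HFS+R and rose by 0.34 (SE 0.06, adjusted p = 0.00105), with 0.33 on another probe. It was higher than every HFS array on 9 of 10 HFS+R arrays. KIF2A, which takes microtubules apart, rose by 0.37, although not with the array SD as a covariate, while the vesicle motors KIF1A (−0.32) and KIF1B (−0.40) and the kinesin light chain KLC2 (−0.31) fell. The call of KLC2 ended with scaling by the array median and with the mean of its probes.

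Insulin signalling held 35 measured genes, of which 4 rose (11.4%) and 5 fell (14.3%), or 5 and 3 with scaling by the array median. GSK3B measured 9.83, 10.08 and 10.57 in HFS and 8.92, 9.24 and 10.09 in HFS+R and fell by 0.76 (SE 0.13, adjusted p = 0.00105). It was below every HFS array on 8 of 10 HFS+R arrays, and the other 2 lay amid the HFS values. GSK3B had 1 kept probe. FOXO3 measured 10.56, 10.99 and 11.24 in HFS and 9.77, 10.30 and 11.04 in HFS+R and fell by 0.65 (SE 0.14, adjusted p = 0.00396) under every setting, but a dimmer probe gave 0.06. TSC2, an inhibitor of mTOR (−0.28), and the adaptor GRB2 (−0.36) fell as well, and the insulin receptor substrates IRS1 (0.27) and IRS2 (0.24), the kinase PDPK1 (0.25) and the lipid kinase subunit PIK3CB (0.33) rose. TSC2 and IRS2 held under every setting, while GRB2 lost its call with scaling by the array median. Of 42 MAP kinase genes 6 rose (14.3%) and 4 fell (9.52%), which turned to 4 and 6 with quantile normalization and to 2 and 3 with the array SD as a covariate. MAPK6 measured 8.42, 8.85 and 9.42 in HFS and 9.23, 9.49 and 9.73 in HFS+R. The phosphatase DUSP8 fell (−0.41), a call that ended with scaling by the array median, and SPRY2, a feedback inhibitor, rose (0.30), a call that ended with the array SD as a covariate.

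Calcium and cyclic nucleotide signalling counted 7 higher (13.7%) and 8 lower (15.7%) of 51 genes, or 11 and 1 with scaling by the array median. Of the phosphodiesterases, PDE8B, which degrades cyclic AMP, measured 10.37, 10.63 and 11.15 in HFS and 9.89, 10.09 and 10.66 in HFS+R and fell by 0.52 (SE 0.10, adjusted p = 0.00187) under every setting, with 0.01 on a dimmer probe. PDE2A (−0.26) and PDE9A (−0.35), which act on cyclic GMP, fell and PDE4D (0.32) rose. PPP3CA, the catalytic subunit of calcineurin, measured 9.23, 9.46 and 9.74 in HFS and 9.61, 9.85 and 10.00 in HFS+R and rose by 0.36 (SE 0.07, adjusted p = 0.00263). In PPP3CA 9 of 10 HFS+R arrays lay above every HFS array. ITPR1, the inositol trisphosphate receptor that releases calcium, rose by 0.30 (SE 0.06, adjusted p = 0.0025), and PRKAR1A, a regulatory subunit of protein kinase A, by 0.30, all 3 under every setting. The adenylyl cyclase ADCY1 (−0.36) and the transcription factor CREB1 (−0.46) were lower.

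Genes by which RSV is usually discussed were called only in part. Of 25 genes of sirtuins, AMPK and NAD synthesis 5 rose (20.0%) and 1 fell (4.00%), and 0 of these rises held with the array SD as a covariate. NAMPT, the rate-limiting enzyme of NAD salvage, measured 6.55, 6.74 and 7.31 in HFS and 6.88, 7.18 and 7.63 in HFS+R and rose by 0.38 (SE 0.09, adjusted p = 0.00816), with 0.28 on another probe. PRKAG1, an AMPK subunit (0.24), and CAB39L, a partner of the AMPK kinase (0.25), rose, and STK11, that kinase itself, fell (−0.28). SIRT1 was not well above background on any HFS array and on 7 of 10 HFS+R arrays, so that no fold is given (adjusted p = 0.0405). It was not called without the filter on dim probes, with either covariate, or with 13 of the arrays left out in turn. SIRT2 gave 0.07 (adjusted p = 0.572) and was not called.

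Antioxidant genes and NRF2 targets counted 7 higher (17.5%) and 5 lower (12.5%) of 40, or 5 and 7 with quantile normalization. NFE2L2, which encodes NRF2, measured 8.64, 9.04 and 9.47 in HFS and 9.16, 9.55 and 9.81 in HFS+R and rose by 0.49 (SE 0.10, adjusted p = 0.00336). It lay above every HFS array on 8 of 10 HFS+R arrays. PRDX3, the mitochondrial peroxiredoxin, rose by 0.39 (SE 0.08, adjusted p = 0.00255), with 0.32 on another probe, and both held under every setting. GPX4, which reduces lipid peroxides, fell by 0.37 (SE 0.08, adjusted p = 0.00419), with −0.34 on another probe, but not with scaling by the array median. GSR (0.18), SRXN1 (0.23) and MGST1 (0.27) rose and GSTP1 (−0.29) and TXNRD2 (−0.27) fell. ALDH2, which clears reactive aldehydes, gave 0.22 (adjusted p = 0.106), and the metallothionein MT1H gave −0.58 (adjusted p = 0.103) over HFS values of 7.46, 8.34 and 9.40. Neither was called, apart from ALDH2 with array weights or without HFS replicate 6 and MT1H without HFS+R replicate 2.

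Of 22 genes of the NF-κB pathway and COMMD proteins 4 rose (18.2%) and 2 fell (9.09%). COMMD10, of the family that limits NF-κB and helps endosomal recycling, measured 7.23, 7.60 and 8.08 in HFS and 7.91, 8.18 and 8.52 in HFS+R and rose by 0.56 (SE 0.09, adjusted p = 0.00105), with 0.70 on another probe and under every setting. COMMD3 rose by 0.39 (SE 0.11, adjusted p = 0.0165), with 7 of 10 HFS+R arrays above every HFS array, but not with the array SD as a covariate. NFKBIA, the NF-κB inhibitor, fell by 0.28 (SE 0.09, adjusted p = 0.0411), a call lost under 6 settings and with 12 of the arrays left out in turn. The cytokine IL18 fell by 0.39 (SE 0.10, adjusted p = 0.0106), lost under 3 settings. CHRNA5, a nicotinic receptor subunit, fell by 0.38 (SE 0.12, adjusted p = 0.0407), lost under 5 settings and with 12 of the arrays left out in turn. RELA, the main NF-κB subunit (0.07, adjusted p = 0.567), AIF1, which encodes the microglial protein Iba1 (0.01, adjusted p = 0.964), and the deacetylase HDAC6 (0.08, adjusted p = 0.488) were not called. TNFRSF25 and IL6 were not detected on enough arrays to be tested.

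Of 22 angiogenesis and hypoxia genes 2 rose (9.09%) and 0 fell by limma, with 2 lower at an unadjusted p under 0.05. HIF1A, the oxygen-regulated transcription factor, measured 7.55, 7.96 and 8.35 in HFS and 8.10, 8.45 and 8.91 in HFS+R and rose by 0.47 (SE 0.11, adjusted p = 0.00619), with 0.36 on another probe and under every setting. TEK, the angiopoietin receptor of endothelium, rose by 0.28 (SE 0.08, adjusted p = 0.0228) except with either covariate. VEGFA (0.08, adjusted p = 0.525) and NOS3, the endothelial nitric oxide synthase (−0.01, adjusted p = 0.955), were not called. VHL, which marks HIF1A for removal, was not called either (−0.24, adjusted p = 0.0779, with 0.08 on a dimmer probe), apart from 4 of the other settings. Of 22 apoptosis genes 1 rose and 1 fell (4.55% each). BIRC6, a ubiquitin ligase that blocks caspases, was higher (0.25) and BCL2L1, a survival factor, lower (−0.26, with 0.14 on a dimmer probe). Neither held with the array SD as a covariate, while BIRC6 was also lost with 11 of the arrays left out in turn. BCL2 gave 0.06 (adjusted p = 0.653).

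Mitochondrial and ribosomal genes were called at about the shares of all genes or below. Of 60 genes of the respiratory chain and ATP synthase 6 rose (10.0%) and 4 fell (6.67%), and of 65 mitochondrial ribosomal proteins 5 rose (7.69%) and 1 fell (1.54%). In each of these lists 0 rose and 1 fell with the array SD as a covariate. NDUFV1, of complex I, measured 10.39, 10.69 and 10.82 in HFS and 9.86, 10.25 and 10.49 in HFS+R and fell by 0.41 (SE 0.07, adjusted p = 0.00122) under every setting. In NDUFV1 9 of 10 HFS+R arrays lay below every HFS array. NDUFB5 (0.35) and UQCR10 (0.30, with 0.04 and 0.07 on dimmer probes), of complexes I and III, and the mitochondrial ribosomal proteins MRPS31 (0.33) and MRPL47 (0.44) rose, all lost with the array SD as a covariate. MRPL12 fell (−0.20), lost with scaling by the array median. Of 64 cytosolic ribosomal genes 1 rose (1.56%) and 3 fell (4.69%). RPL7 (0.27) was higher and RPL36 (−0.31) and RPL7L1 (−0.34, with 0.14 on a dimmer probe) were lower, none of them with the array SD as a covariate. The list gave 4 higher and 2 lower genes with quantile normalization, 13 and 0 with scaling by the array median, and 2 and 0 with the array SD as a covariate. RPL7L1 lost its call under 7 settings, and RPL7 and RPL7L1 each also lost the call with 11 of the arrays left out in turn. These genes have many processed copies in primate genomes, to which the probes may also bind. Of 72 translation factors 6 rose (8.33%) and 7 fell (9.72%), or 13 and 1 with scaling by the array median. EIF3J (0.38) was higher and EEF1D (−0.33, with −0.33 on another probe) and EIF4G1 (−0.26, with −0.27) were lower. Calls of these 3 ended with the array SD as a covariate. Of 40 glycolysis and citric acid cycle genes 2 rose (5.00%) and 3 fell (7.50%), again not with that covariate. DLD (0.35) and MPC1, the pyruvate carrier (0.23), were higher, and ENO2, the neuronal enolase (−0.32), was among the lower. Scaling by the array median gave 7 higher and 0 lower of this list. MPC1 also lost its call without HFS replicate 3 or HFS+R replicates 9 or 10.

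BBOX1, the last enzyme of carnitine synthesis, measured 6.80, 7.14 and 7.55 in HFS and 7.26, 7.55 and 7.75 in HFS+R and rose by 0.39 (SE 0.09, adjusted p = 0.00619), except with the array SD as a covariate. Of 26 cholesterol genes 3 rose (11.5%, against 9.94% of all genes) and 2 fell (7.69%, against 6.07%). INSIG2, which holds sterol sensors in the endoplasmic reticulum, rose by 0.32 (SE 0.08, adjusted p = 0.00833). MSMO1 (0.47) and SQLE (0.38), both of sterol synthesis, were higher and HSD17B7 (−0.37), of the same pathway, and APOE (−0.29), the lipid carrier of astrocytes, lower. Other probes of MSMO1 gave −0.15 and 0.17, and its call ended with the mean of its probes. Calls of INSIG2, MSMO1 and HSD17B7 ended with the array SD as a covariate.

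In RNA metabolism, 20 of 166 splicing factors rose (12.0%, against 9.94% of all genes) and 13 fell (7.83%, against 6.07%). With quantile normalization 18 rose and 19 fell. RBFOX2, a regulator of neuronal splicing, measured 11.45, 11.56 and 11.87 in HFS and 10.83, 11.10 and 11.60 in HFS+R and fell by 0.49 (SE 0.08, adjusted p = 0.00081), with 9 of 10 HFS+R arrays below every HFS array, but not with scaling by the array median. HNRNPK rose on its brightest probe (0.26), with 0.00, 0.11 and −0.02 on the others, and HNRNPC rose by 0.31, with 0.34 on its other probe. Neither was called as a mean of its probes, at 0.09 for HNRNPK and 0.33 for HNRNPC (adjusted p = 0.261 and 0.268). SRSF7 (0.25) and SF3B6 (0.30) rose under every setting. Of 26 genes of the microRNA machinery 3 rose (11.5%) and 4 fell (15.4%), or 4 and 1 with scaling by the array median. AGO2 and its partner TNRC6A (−0.23) were among those that fell. CNOT7, a deadenylase that shortens poly(A) tails, rose by 0.51 (SE 0.09, adjusted p = 0.00201) under every setting, with −0.01 on a dimmer probe, and DCP2, which removes caps, by 0.29, except with the array SD as a covariate.

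Of 112 chromatin genes 5 rose (4.46%) and 10 fell (8.93%), but 10 rose and 2 fell with scaling by the array median. MSL3 measured 9.20, 9.51 and 9.92 in HFS and 8.44, 8.88 and 9.26 in HFS+R. It was lower than every HFS array on 9 of 10 HFS+R arrays. KAT2B, a histone acetyltransferase, rose by 0.51 (SE 0.11, adjusted p = 0.00419) under every setting, and PRDM2, a histone methyltransferase, fell by 0.49 (SE 0.09, adjusted p = 0.00154), an inexact size with 3 of 10 HFS+R arrays detecting it and −0.03 on another probe. The remodellers CHD4 (−0.37), CHD5 (−0.30) and CHD8 (−0.29) were lower. Of 24 histone genes 1 rose (4.17%) and 2 fell (8.33%). H4C3 and the linker histone H1-10 (−0.28, lost with scaling by the array median) were lower. H1-2 (0.29) was higher, a call lost under 6 settings and with 15 of the arrays left out in turn. Of 252 ZNF genes, mostly transcription factors, 29 rose (11.5%) and 16 fell (6.35%), near the 9.94% and 6.07% of all genes. With the array SD as a covariate 2 rose and 6 fell. ZNF827, a factor of telomeric chromatin, was below every HFS array on 9 of 10 HFS+R arrays (−0.44), and ZNF451, a SUMO ligase (0.36, with 0.08 on a dimmer probe), was above on 8 of 10. Both held under every setting, while ZNF503, a repressor (−0.34), did not hold with scaling by the array median.

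Of 18 clock genes 2 rose (11.1%), HLF (0.29) and RORA, and 0 fell by limma, with 1 lower at an unadjusted p under 0.05. HLF lost its call with either covariate and with 6 of the arrays left out in turn. RORA gave 0.67 on its brightest probe but −0.72, −0.53, −0.22 and −0.20 on the others, and as a mean of its probes −0.20. Its call was also lost with 12 of the arrays left out in turn. Of 27 immediate early genes 1 fell (ARC, −0.27) and 1 rose (HOMER1), 3.70% each way. ARC, which acts at active synapses, was not called with scaling by the array median, nor without HFS replicate 4 or HFS+R replicates 5, 6 or 10.

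Markers of cell types were measured alongside, since fewer cells of a type and less RNA per cell cannot be told apart in whole tissue. As a check of the labelled tissue, 11 of 12 general neuronal and 8 of 9 excitatory markers were detected. Of these 0 were called by limma, with 1 and 2 of them at an unadjusted p under 0.05. Oligodendrocyte markers lay higher in HFS+R as a list, with 3 of 14 measured called higher (21.4%, against 9.94% of all genes) and 0 lower. Their median was 0.22 (0.02 over all genes), and 11 lay above 0, as did 5525 of all 9884 genes. Their mean level, each gene scaled to an SD of 1, ran from −1.90 to 0.76 in HFS and from −0.32 to 1.52 in HFS+R. MOG, a protein of the outer myelin layer, measured 6.28, 6.41 and 6.65 in HFS and 6.53, 6.86 and 7.01 in HFS+R, was detected on 8 of 10 HFS and 10 of 10 HFS+R arrays, and rose by 0.39 (SE 0.07, adjusted p = 0.00122). UGT8, which makes the main myelin lipid, rose by 0.43. ERMN was called higher but was detected on 1 of 10 HFS and 5 of 10 HFS+R arrays, so that no size is given. Calls of UGT8 and ERMN ended with the array SD and with the oligodendrocyte marker level as a covariate, and 1 gene of the list was higher in the former fit. UGT8 and ERMN are themselves part of that marker level, so nothing can be read from their loss in the latter fit. With the oligodendrocyte marker level as a covariate 947 of the 1582 calls remained, and those of CA2, ETNPPL, CDKN1B and SAR1B were among the ones that ended.

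Of 11 measured astrocyte markers 2 rose (18.2%) and 1 fell (9.09%). GJA1, the gap junction protein connexin of astrocytes, measured 7.77, 8.10 and 8.45 in HFS and 8.18, 8.66 and 9.17 in HFS+R and rose by 0.56 (SE 0.11, adjusted p = 0.00209). It was above every HFS array on 9 of 10 HFS+R arrays. SLC4A4, a bicarbonate carrier of astrocytes, rose by 0.51 (SE 0.10, adjusted p = 0.00362), with 0.44 on another probe, and both held under every setting. ALDH1L1, another astrocyte marker, fell by 0.32 (SE 0.10, adjusted p = 0.0317), but not with scaling by the array median or with 7 of the arrays left out in turn. DLX1, a homeobox gene of inhibitory neurons, rose by 0.29 (SE 0.06, adjusted p = 0.00613) under every setting, with 0.05 on a dimmer probe. It was 1 of 12 markers of these cells (8.33%). Of 11 microglial, 5 oligodendrocyte precursor, 7 mural, 3 red blood cell and 2 choroid plexus and ependyma markers 0 were called by limma, with 1 microglial and 1 mural marker at an unadjusted p under 0.05. For endothelium 1 of 8 markers was called (12.5%), TEK. The part of cell composition in the other calls was not tested beyond the covariate.

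Genes read by more than 1 kept probe showed how far a call held within a transcript. Of 289 genes called higher that had another kept probe, the next brightest probe lay above 0 in 249 (86.2%) and was itself called higher in 104 (36.0%), with a median of 0.20 against 0.28 on the brightest. Of 161 genes called lower the next brightest probe lay below 0 in 109 (67.7%) and was called lower in 34 (21.1%), with a median of −0.08 against −0.31. In genes that were not called, 67.1% of 1682 had both probes on the same side of 0. In 10 genes the probes were called in opposite directions, among them CGGBP1, RORA, HK1, a hexokinase, and RAD21, of cohesin. Whether such probes read different isoforms or bind the monkey transcript less well was not tested.

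**Figure D5:**
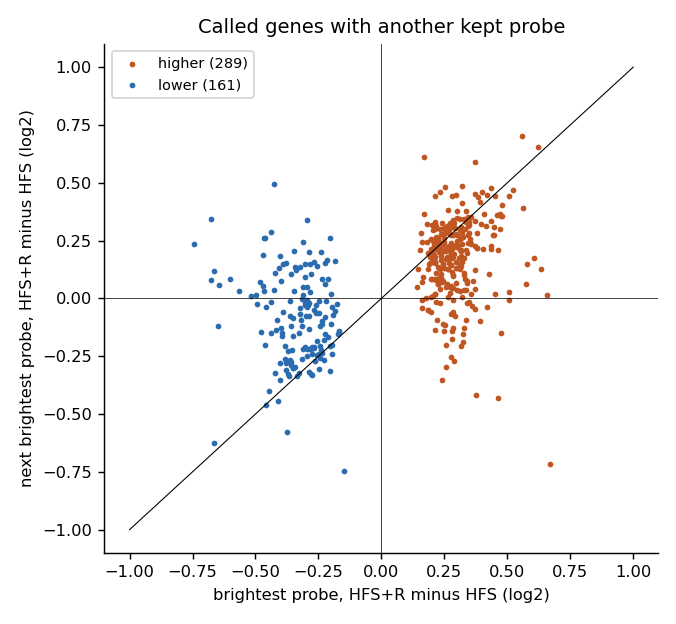
Difference between HFS+R and HFS (log2) on the next brightest kept probe (y axis) against that on the brightest (x axis) for 289 genes called higher (orange) and 161 called lower (blue), 1 point per gene, with the line of equal values in black. Most orange points lie above 0 on the y axis, while the blue points lie on both sides of it.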

How the data were processed

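Total RNA of 24 cortex samples was hybridized to Illumina HumanHT-12 V4.0 beadchips, 1 array per monkey. The authors deposited a signal intensity for each of 47323 probes made with GenomeStudio 2011.1, with a detection p-value. A Z score of every probe, in which the log2 signal is centred on the array mean and divided by the array SD, was deposited as well. Z scores were computed again from the signals (largest difference from the deposited ones 5e-10) and brought to a log2 scale with a factor common to the arrays. This sets every array to the same SD. Of the probes, 30113 carry 1 gene symbol in the platform annotation, 8 carry several and 17202 have none listed; the latter were not used, and 58 symbols were updated through the synonyms of the rhesus RefSeq annotation. Kept probes were detected (p under 0.01) on 4 or more arrays, and the brightest kept probe stood for a gene (2132 genes had several). A linear model with all 3 diets was fitted in R 4.3.3 with limma 3.58.1 (2-sided, empirical Bayes), with Benjamini-Hochberg adjustment over 9884 genes and a threshold of 0.05; adjusted p-values and standard errors in the report are from this fit. Array measures were tested with 100000 permutations. The limma step was tested on simulated data.

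Members and lists were chosen with earlier results of these data known. Named genes are the 15 largest rises and 15 largest falls among called genes detected on all 20 arrays, the called genes whose groups do not overlap, genes the study names, and up to 3 called members of each of 37 function and 11 marker lists with the smallest p. Members of lists given with a bare log2 difference, beyond these, were chosen after their values were seen. List counts carry no test. Differences of genes near background are inexact in size and may understate a change, which was not tested. Other settings were quantile normalization, neqc (offset 16), scaling by the array median, 3 other filters on dim probes, the mean of a gene's probes, only HFS and HFS+R arrays, weighted arrays, a robust prior with a trend, a block for the replicate number, the array SD or the oligodendrocyte marker level as a covariate, the deposited Z scores, the thresholds of the study, and fits that left out 1 array. The number of arrays limits the precision. Genome positions and sequences were not used here. Figures were made with matplotlib 3.10.9.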

Additional observations from a re-analysis of the deposited data

Results flagged for a closer look

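In 20 of 480 sets of values (the named genes, the array SD and the number of detected probes, in each diet group), the highest or lowest array stood apart from the rest by more than Dixon's criterion allows. Chance flags about 1 in 20 sets.

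Arrays of HFS+R replicate 7 were the lowest of their group in CA2 (7.69), RAB3A (9.07), H1-10 (8.63) and BCL2 (7.77). HFS replicate 7 was the lowest of its group in UBE2K (8.54) and UBE2O (8.94). HFS+R replicate 3 was the highest in SEC24A (7.33) and MMADHC (10.3) and the lowest in NDUFV1 (9.86). HFS+R replicate 1 was the lowest in SAR1B (7.35). Among HFS arrays, replicate 3 was the highest in CDKN1B (8.47), replicate 10 in RNPC3 (8.39), replicate 2 in VEGFA (7.69), replicate 6 in ALDH2 (8.07) and replicate 1 in HSD17B7 (11.7), and replicate 4 was the lowest in SIRT1 (5.49), which no HFS array detected. Of the SD arrays, replicate 1 was the lowest in SNX3 (10.3) and GRIN2B (6.79) and the highest in INSIG2 (8.38), and replicate 4 was the highest in ENO2 (13.4). All values are levels on the log2 scale.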

How the results depend on the processing

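The number of genes that differed between HFS+R and HFS was 1582 and depended on the array SD and on the oligodendrocyte marker level. With the array SD as a covariate 402 genes were called (161 higher, 241 lower), and with the oligodendrocyte markers 1045 (592 higher, 453 lower). The thresholds of the study, with a false discovery rate read as under 0.3, gave 2607. With scaling by the array median 73 genes were lower in HFS+R and 3 genes had groups that did not overlap. With 1 array left out the number called ran from 1109 (without HFS replicate 4) to 1924 (without HFS replicate 10), higher genes from 660 to 1217 and lower genes from 427 to 707. Replicate numbers did not pair the arrays, since deviations of arrays with the same number correlated at −0.12 to 0.25 and 1 of 10 numbers correlated best with its own. With the replicate number as a block 1544 genes were called.

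Of 146 named genes that were called, 58 kept their call under every setting in which they were measured. The setting limited to genes detected on all 20 arrays did not include the dimmer of them. The array SD as a covariate ended 68 of these calls, scaling by the array median 34, and the oligodendrocyte markers 25. Direction turned in genes that were not called, at differences near 0: KCNS1 (0.0425) and NOS3 (0.0324) with scaling by the array median, SIRT2 (−0.0354) with the oligodendrocyte markers, HDAC6 (−0.0315) with the array SD, and AIF1 with quantile normalization (−0.0454), neqc (−0.0562), array weights (−0.000695), the array SD (−0.0578) and the oligodendrocyte markers (−0.00362). With 1 array left out NOS3 ran from −0.0700 to 0.0404 (above 0 without HFS replicates 2, 5 and 10 or HFS+R replicates 1 and 10) and AIF1 from −0.0317 to 0.0419 (below 0 without HFS replicates 7, 8 and 9 or HFS+R replicates 2, 9 and 10). Among called genes, RORA turned to −0.20 with the mean of its probes and ATP6V0A1 to 0.00125 with scaling by the array median. The cause of these changes was not tested.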
